A study of Mus musculus with 13 samples.

Results

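The mouse major histocompatibility complex (MHC) on chromosome 17 was examined in 4 windows of build mm9 that are named for its class I gene series. The H2-K and class II window runs from 33.90 to 34.60 Mb, the H2-D and H2-Q window from 35.38 to 35.62 Mb, the H2-T window from 36.00 to 36.50 Mb and the H2-M window from 36.50 to 37.50 Mb. They span 2.44 Mb and were chosen by map position, with earlier results on H3K9me3 of these same lists known, so their H3K9me3 values are given as a description with no test. Any peak that touched a window by 1 bp or more was a member, which gave 405 of the 185431 peaks in all 8 lists. The class I genes that stand for the series are 5 in number, namely H2-K1, H2-D1, H2-Q10, H2-T23 and H2-M3.

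The cells were mouse embryonic stem (ES) cells of the J1 line with an inducible knockout of Setdb1, grown without feeders in medium with serum and LIF. Chromatin immunoprecipitation and sequencing gave H3K27me3 after 2.5 µM tamoxifen (2 libraries), H3K27me3 without tamoxifen (2 libraries) and H3K9me3 without tamoxifen (4 libraries). Tamoxifen induces the ablation of Setdb1, DMSO was its solvent control per the labels' protocols, and libraries without tamoxifen are called untreated here. Inputs (5 samples) and H3K9me3 with tamoxifen are not analysed here. The lists give no measure of how far Setdb1 was ablated.

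All groups share the knockout line, and the labels do not say how many clones it comprises or whether the libraries came from separate cultures. Spread between libraries, and any p-value built on it, may therefore be technical. The lists held 15116 and 22265 peaks for H3K27me3 with tamoxifen, 7041 and 17094 for untreated H3K27me3, and 18037, 29410, 42725 and 33743 for H3K9me3 replicates 1 to 4. They give positions alone, so depth and peak height are unknown. Replicate 1 of each group was called with MACS2 2.0.10 and the other libraries with MACS2 2.1.0, per the submitters' processing notes. Replicate 1 stood apart in several measures below. The version goes with this split of the libraries, so anything else that differs between them cannot be told apart from it. H3K9me3 replicate 4 has no antibody named in its label and was grouped by its title, so results are also given without it.

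MHC class I molecules are cell surface proteins that pair with beta-2 microglobulin and show peptides from inside the cell to CD8 T cells and natural killer cells. H2-K1 and H2-D1 encode the classical, highly polymorphic heavy chains, H2-Q10 a secreted relative made in the liver, H2-T23 the Qa-1 molecule seen by receptors of natural killer cells, and H2-M3 a molecule that presents peptides with a formylated start. H3K9me3, which Setdb1 deposits, and H3K27me3, which the Polycomb repressive complex deposits, are marks of silent chromatin, and ES cells are known for low class I expression. The class II stretch beside H2-K1 also holds genes that serve class I molecules, among them Tap1 and Tap2, which carry peptides into the endoplasmic reticulum, and Psmb8 and Psmb9, subunits of the immunoproteasome.

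In the RefSeq table of build GRCm38.p6 these genes lie along chromosome 17 in the order Tapbp, H2-K1, H2-Oa, H2-DMa, H2-DMb1, Psmb9, Tap1, Psmb8, Tap2, H2-Ob, H2-Ab1, H2-Aa, H2-Eb1, H2-D1, H2-Q10, H2-T23 and H2-M3. The table names 35 genes of the H2-K, H2-D, H2-Q, H2-T and H2-M series on that chromosome, 27 of them protein-coding, with 15 in the H2-M series and 10 in the H2-Q series. No mm9 annotation was used, so no peak is assigned to a gene, and GRCm38 positions below cannot be compared with the mm9 positions of peaks.

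All 5 genes had a promoter in the RefSeq table, 250 bases before to 50 after the start on GRCm38.p6. For a gene with several starts the first one listed was used. The promoters of the H2-K1, H2-D1 and H2-Q10 genes are shown because stretches of them are the same letter for letter, and a read that lies wholly within such a stretch has more than 1 place in the genome. Capitals mark words searched on both strands, which do not overlap here. They are CCAAT, the letters of a CCAAT box (ATTGG on the other strand), and TGACG, the core of a cyclic AMP response element. Then come TATAAA, the letters of a TATA box, and TTTCNNTTC, which resembles interferon-stimulated response elements but is not their usual form. TATAAA lies after the start used in H2-K1 and before it in H2-D1 and H2-Q10.
H2-K1, chr17:34000298-34000597, minus strand: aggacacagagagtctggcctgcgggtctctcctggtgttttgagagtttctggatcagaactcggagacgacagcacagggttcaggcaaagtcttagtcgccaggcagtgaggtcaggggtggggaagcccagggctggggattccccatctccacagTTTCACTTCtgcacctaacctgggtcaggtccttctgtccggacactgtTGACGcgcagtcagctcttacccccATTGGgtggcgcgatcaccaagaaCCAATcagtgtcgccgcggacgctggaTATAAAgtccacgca
H2-D1, chr17:35262844-35263143, plus strand: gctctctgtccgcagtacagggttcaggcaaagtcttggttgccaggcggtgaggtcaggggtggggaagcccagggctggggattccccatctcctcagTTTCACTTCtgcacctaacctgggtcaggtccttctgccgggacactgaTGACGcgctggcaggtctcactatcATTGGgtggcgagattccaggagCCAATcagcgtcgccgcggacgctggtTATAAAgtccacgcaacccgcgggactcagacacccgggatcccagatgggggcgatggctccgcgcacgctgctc
H2-Q10, chr17:35469839-35470138, plus strand: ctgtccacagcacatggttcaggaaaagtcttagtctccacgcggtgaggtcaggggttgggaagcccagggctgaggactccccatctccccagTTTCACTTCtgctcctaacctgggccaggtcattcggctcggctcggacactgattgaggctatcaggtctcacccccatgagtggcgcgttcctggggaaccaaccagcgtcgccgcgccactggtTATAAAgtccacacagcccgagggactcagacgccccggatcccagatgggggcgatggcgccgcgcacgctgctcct

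Aligned without a charge for uneven ends, the promoters of H2-K1 and H2-D1 were identical at 211 of 239 aligned bases, with a longest identical run of 47 bp. H2-D1 and H2-Q10 were identical at 256 of 290 aligned bases, with a longest run of 23 bp. Pairs with H2-T23 or H2-M3 were 52.1% to 62.0% identical, gaps counted, and their longest run was 12 bp. How the authors treated reads with several places is not given in the sources used here.

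TTTCNNTTC was found in the promoters of 4 of the 5 genes, all except H2-T23, and in 7.56% of the 27025 promoters of the table. CCAAT was found in 4 of the 5, all except H2-Q10, against 37.9% of the table. TGACG was in 3 of the 5 and 21% of the table, and TATAAA in 3 of the 5 and 14.2% of the table. A missing match says only that these letters are not in this window. The share with TTTCNNTTC is not a count of interferon-stimulated response elements.

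H3K9me3 peaks covered more of the H2-T, H2-D and H2-Q, and H2-K and class II windows than of the rest of chromosome 17, and covered the H2-M window about as much as that rest. The rest of the chromosome was measured from the first to the last peak of any list, less the 4 windows. Over all 4 windows together, coverage was 44.5, 34.1, 45.5 and 32.5 kb per Mb in replicates 1 to 4, against 21.2, 17.4, 25.3 and 19.7 kb per Mb in the rest of chromosome 17. The windows were above the rest in each library, by a ratio of 1.88 ± 0.196 (SD, n = 4), and by 1.95 without replicate 4.

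The H2-T window, named for the series of H2-T23, was covered by 89.4, 55.9, 76.2 and 49.6 kb per Mb in replicates 1 to 4, which is 3.24 ± 0.717 times the rest of the chromosome (SD, n = 4). Each of its libraries lay above every library of the H2-K and class II window. The H2-D and H2-Q window had 68.8, 59.3, 63.2 and 43.0 kb per Mb, 2.83 ± 0.589 times the rest. The H2-T and the H2-D and H2-Q windows did not differ beyond their spread, since their ranges overlap and replicate 2 has their order reversed.

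The H2-K and class II window had 42.2, 30.5, 45.6 and 32.6 kb per Mb in replicates 1 to 4, a ratio to the rest of 1.80 ± 0.143 (SD, n = 4). It lay below the H2-D and H2-Q window within every library, though the ranges over libraries overlap. In the H2-M window, which is the longest and named for the series of H2-M3, coverage was 17.9, 19.7, 25.8 and 21.5 kb per Mb, 1.02 ± 0.127 times the rest. The H2-M window was lowest of the 4 in every library, with no overlap with the other 3, and its ratio lies within 1 SD of an even level. Without replicate 4 the mean ratios were 3.48 in the H2-T, 3.05 in the H2-D and H2-Q, 1.85 in the H2-K and class II and 0.999 in the H2-M window.

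**Figure D1:**
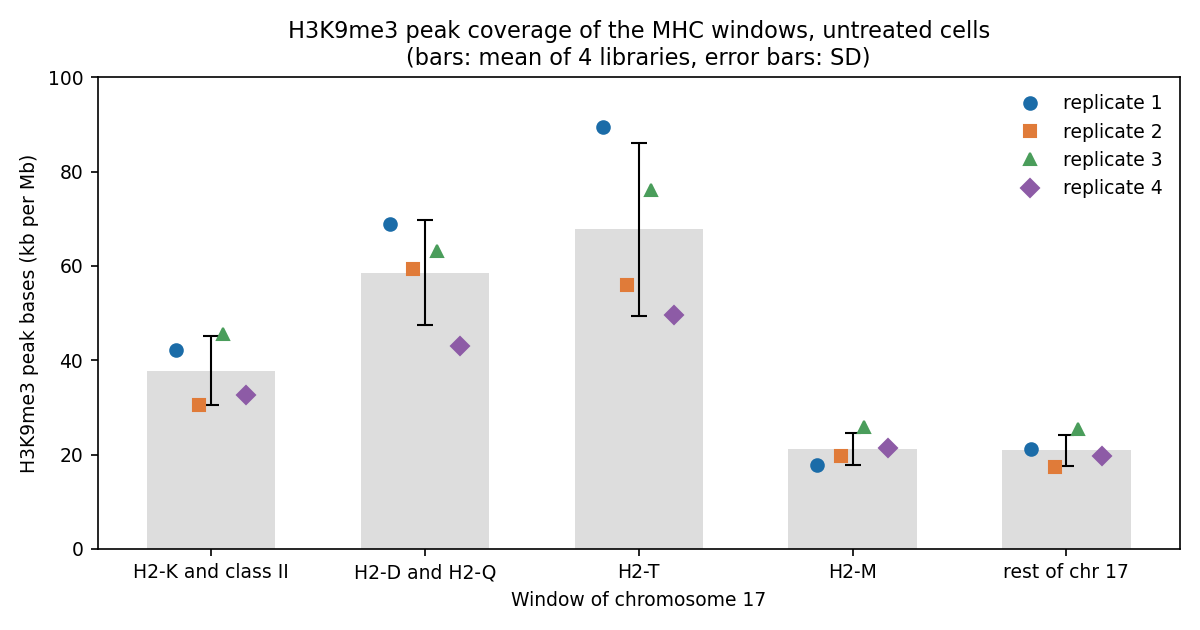
H3K9me3 peak bases in kb per Mb (vertical axis) in each window and in the rest of chromosome 17 (horizontal axis), untreated cells. Points are the 4 libraries, bars their mean and error bars the SD; in the H2-M window and the rest of the chromosome all libraries lie under 30 kb per Mb, and in the other windows all lie above it.

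Set against 184 tiles of 0.5 Mb along chromosome 17, those in the windows included, the mean H3K9me3 coverage of the H2-T window was passed by 5 tiles and that of the H2-D and H2-Q window by 10. The H2-K and class II window was passed by 28 tiles and the H2-M window by 69. The median tile had 16.1 kb per Mb. The windows are 0.24 to 1.00 Mb long, so only the H2-T window has the length of a tile. The part of length in these ranks was not tested. High coverage thus occurs elsewhere on the chromosome, up to 107 kb per Mb in the highest tile.

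The stretches between windows were less covered than the windows on either side, in each library. From 34.60 to 35.38 Mb, between the H2-K and class II and the H2-D and H2-Q windows, H3K9me3 coverage was 24.6 to 33.1 kb per Mb over the 4 libraries, 1.16 to 1.49 times the rest of the chromosome. From 35.62 to 36.00 Mb, before the H2-T window, it was 4.47 to 18.5 kb per Mb, 0.241 to 0.729 times the rest. The borders matter most for the short H2-D and H2-Q window, whose mean ratio was 2.00 with all outer borders moved outward by 50 kb and 3.51 with borders moved inward by 50 kb.

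Merging the peaks of the 4 H3K9me3 libraries gave 63 regions in the windows, and 23 of them, or 36.5%, were held by all 4 libraries. The share of such regions was 22.3% in the rest of chromosome 17, 447 of 2001, and 20.7% over the genome. Within that rest, the stretch between the H2-K and class II and the H2-D and H2-Q windows had 35.7%, 5 of 14. The stretch between the H2-D and H2-Q and the H2-T windows had 10%, 1 of 10. A share near that of the windows was thus not particular to them, though the counts in these stretches are small. By window, 8 of 18 regions of the H2-T window, 3 of 9 of the H2-D and H2-Q window, 5 of 16 of the H2-K and class II window and 7 of 20 of the H2-M window were held by all 4. Each window held some, the H2-M window included.

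Replicate 1 set this number. A further 12 of the 63 regions held a peak in replicates 2, 3 and 4 and not in replicate 1. In the rest of chromosome 17, 329 of 2001 regions did. Regions built anew without replicate 1 and held by the other 3 libraries numbered 43, given without a comparison. Without replicate 4 the count stayed at 23. The windows had 28, 52, 65 and 58 H3K9me3 peaks in replicates 1 to 4, with a median width of 2023, 1183, 887 and 842.5 bp, so replicate 1 had the fewest and widest peaks.

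H3K9me3 libraries other than replicate 1 shared more of their peak bases with each other than with replicate 1. The Jaccard index, the shared bases of a pair of libraries over the bases of either, was 0.595 to 0.631 for pairs among replicates 2 to 4 over the windows, against 0.483 to 0.516 in the rest of chromosome 17. For pairs with replicate 1 it was 0.386 to 0.422 in the windows and 0.334 to 0.351 in the rest. Both sets of pairs were higher in the windows.

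The widest H3K9me3 region of the windows lay in the H2-T window at chr17:36135939-36160366, 24428 bp long. Peaks covered 72.0%, 59.2%, 69.7% and 53.7% of it in replicates 1 to 4. It opens a run of 5 regions held by all 4 libraries, which lies within 109 kb, from 36135939 to 36245007, and holds 87.5% of the bases of the 8 such regions in the H2-T window. That run was noted after the positions were seen.

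The next widest of the H2-T window, chr17:36185624-36195407 of 9784 bp, was covered over 85.8%, 26.5%, 29.4% and 9.94% in replicates 1 to 4, so it was wide in replicate 1 alone. The region at chr17:36237183-36245007, 7825 bp, closes the run and was covered over 86.0%, 35.9%, 83.0% and 49.5%. Neighbouring regions of the H2-T window held by all 4 lay a median of 25.3 kb apart, against 86.5 to 113 kb in the other windows and 100 kb in the rest of chromosome 17. The H2-T regions are in that measure the most crowded of the 4 windows.

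In the H2-K and class II window the widest region, chr17:34354738-34373213 of 18476 bp, was covered over 89.0%, 41.3%, 51.8% and 42.7% in replicates 1 to 4. The second, chr17:34150056-34158380 of 8325 bp, was covered over 94.1%, 93.5%, 97.7% and 91.3%. It is the region of the windows on which the 4 libraries came closest to full cover together. The third, chr17:33991334-33996899 of 5566 bp, was covered over 33.9%, 37.4%, 100% and 45.3%, and replicate 3 alone set its borders.

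The H2-D and H2-Q window had 3 regions held by all 4 libraries, led by chr17:35499852-35513814 of 13963 bp, which was covered over 89.8%, 46.9%, 50.7% and 42.6% in replicates 1 to 4. The region chr17:35614703-35618111 of 3409 bp was covered over 70.3%, 53.7%, 56.8% and 47.6%, and chr17:35417635-35419502 of 1868 bp over 84.4%, 74.6%, 83.5% and 71.9%. The region from 35614703 lies just inside the window's far border.

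In the H2-M window the regions were narrower. The widest, chr17:37374556-37380002 of 5447 bp, was covered over 68.3%, 55.3%, 85.8% and 60.3% in replicates 1 to 4, and chr17:36761842-36767216 of 5375 bp over 74.0%, 56.7%, 71.1% and 41.5%. The third, chr17:37240320-37243445 of 3126 bp, was covered over 65.5%, 85.6%, 69.4% and 82.1%. Regions held by all 4 had a median width of 2687 bp in the H2-M window, against 5182 bp in the H2-T window, 3409 bp in the H2-D and H2-Q window and 5566 bp in the H2-K and class II window.

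In 3 windows the widest region held a single peak of at least 10 kb in replicate 1 that the other libraries divided. In the H2-K and class II window that peak was 16443 bp long, and replicates 2, 3 and 4 had 4 peaks each over 44.1%, 45.9% and 42.2% of it. In the H2-D and H2-Q window it was 12544 bp long and met 2 peaks in each of the others, over 44.9%, 45.2% and 45.0%. In the H2-T window it was 17592 bp long and met 2 peaks in each, over 56.1%, 60.9% and 57.2%.

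The divisions fell at nearly the same bases in replicates 2, 3 and 4. In the H2-D and H2-Q window the stretch between the peaks was 6915, 6843 and 6838 bp long, and 6835 bp, chr17:35504421-35511255, lay in no peak of these libraries. In the H2-T window it was 6877, 6885 and 6850 bp, and the stretch in no peak, chr17:36144224-36151058, was again 6835 bp. The longest such stretch in the H2-K and class II peak was 4031 bp, chr17:34363429-34367459.

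**Figure D2:**
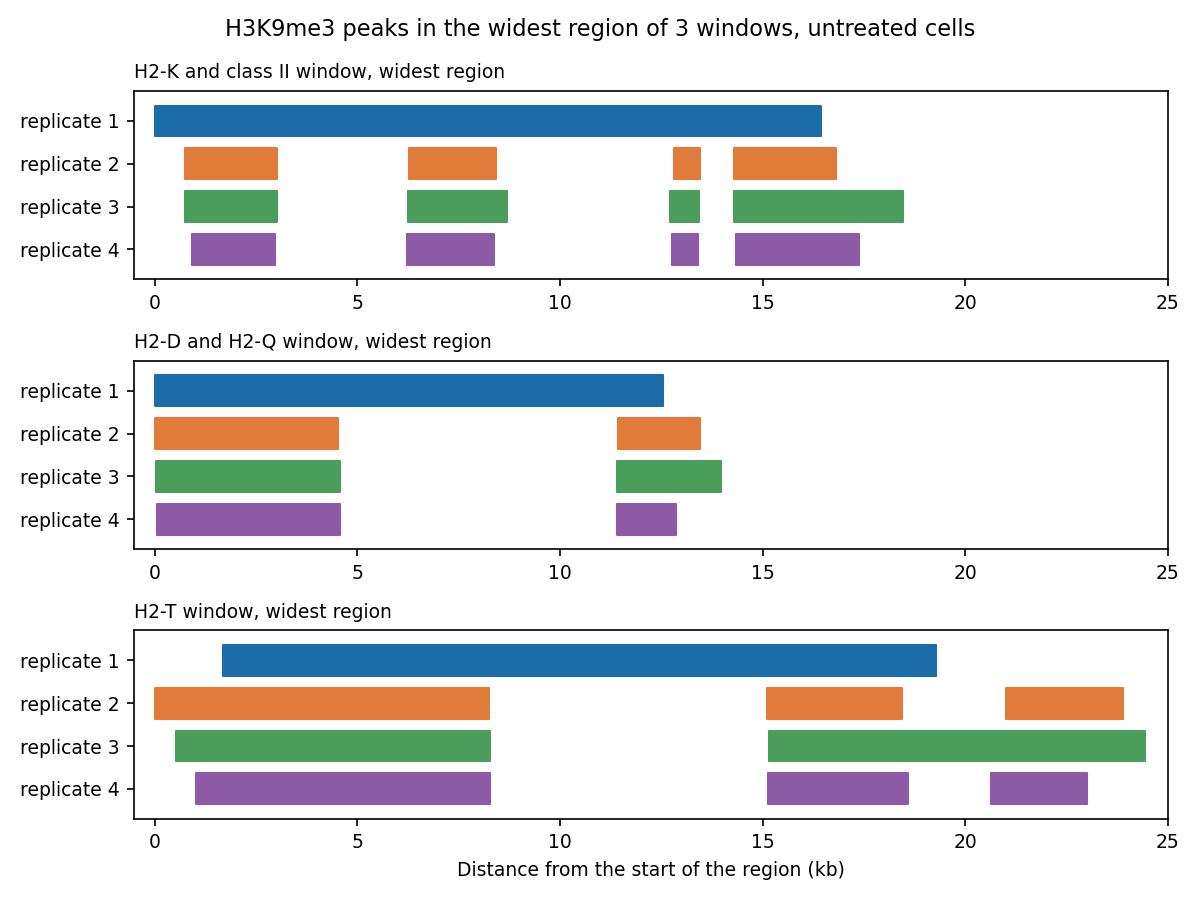
H3K9me3 peaks of each library (rows) along the widest region of 3 windows, as distance in kb from the start of the region (horizontal axis), untreated cells. Bars are peaks; replicate 1 has 1 peak in each region, and the other libraries share stretches without a peak, 6835 bp long in the H2-D and H2-Q and in the H2-T window.

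H3K27me3 peaks covered the windows named for H2-D and H2-Q, H2-K and class II, and H2-T more than the rest of chromosome 17 in all 4 lists, with tamoxifen and without. Over the 4 windows together coverage was 18.9 and 47.6 kb per Mb with tamoxifen, and 20.5 and 39.8 kb per Mb in untreated cells, replicates 1 and 2 in each. In the rest of chromosome 17 it was 7.66 and 12.6 kb per Mb with tamoxifen, and 8.27 and 10.1 kb per Mb in untreated cells. Windows exceeded the rest by 2.47 and 3.78 times with tamoxifen, and by 2.47 and 3.96 times in untreated cells.

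No effect of tamoxifen on H3K27me3 coverage of the windows was larger than the spread between libraries. The means were 33.3 ± 20.3 kb per Mb with tamoxifen and 30.1 ± 13.7 kb per Mb in untreated cells (SD, n = 2 each), a difference of 3.16 kb per Mb (exact permutation test, two-sided, p = 1). The smallest p that 2 libraries against 2 allow is 0.333. Within replicate 1, called with MACS2 2.0.10, tamoxifen minus untreated was -1.52 kb per Mb, and within replicate 2, called with 2.1.0, it was 7.83 kb per Mb. Replicate 2 lists exceeded replicate 1 lists in both conditions.

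H3K27me3 lists made with the same MACS2 version shared more of their peak bases in the windows than lists of the same condition. The Jaccard index of a tamoxifen and an untreated list was 0.502 within MACS2 2.0.10 and 0.479 within 2.1.0. It was 0.289 for the pair of tamoxifen lists and 0.300 for the pair of untreated lists, each of which joins both versions. In the rest of chromosome 17 the index was 0.585 and 0.482 within the versions, 0.398 for the tamoxifen pair and 0.506 for the untreated pair.

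The H2-D and H2-Q window had the highest H3K27me3 coverage, at 33.4 and 147 kb per Mb with tamoxifen, against 59.1 and 143 kb per Mb in untreated cells. Within replicate 1 tamoxifen minus untreated was -25.7 kb per Mb, and within replicate 2 it was 4.06 kb per Mb. A single tile of the 184 along the chromosome had more than its mean, in tamoxifen and in untreated lists alike.

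The H2-K and class II window had 29.1 and 70.5 kb per Mb with tamoxifen, against 24.8 and 47.6 kb per Mb in untreated cells, higher with tamoxifen within each replicate number. The H2-T window had 20.2 and 47.9 kb per Mb with tamoxifen, against 14.9 and 43.8 kb per Mb in untreated cells, also higher within each. For both windows the exact permutation p was 0.667 over 2 libraries against 2, and the values of the groups overlap. Tamoxifen lists also held more peaks over the genome within each replicate number. The part of list length in the values of these windows was not tested.

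The H2-M window had 7.72 and 7.55 kb per Mb of H3K27me3 with tamoxifen, against 10.9 and 7.53 kb per Mb in untreated cells, 0.599 to 1.32 times the rest of the chromosome over the 4 lists (exact permutation p = 1, as in the H2-D and H2-Q window). All 4 lists gave the windows in the order H2-D and H2-Q, H2-K and class II, H2-T and H2-M. The H2-M window was thus lowest in both marks, while the window highest in H3K27me3 was H2-D and H2-Q and that highest in H3K9me3 was H2-T in 3 of 4 libraries.

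High H3K27me3 coverage was not particular to the windows. The stretch from 34.60 to 35.38 Mb between them had 36.7 and 71.4 kb per Mb with tamoxifen, and 38.3 and 52.1 kb per Mb in untreated cells, 4.63 to 5.67 times the rest of the chromosome. It lay above the H2-K and class II window and the H2-T window in all 4 lists. The stretch from 35.62 to 36.00 Mb had 5.13 and 19.9 kb per Mb with tamoxifen, and 3.97 and 9.29 kb per Mb in untreated cells, 0.480 to 1.58 times the rest.

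**Figure D3:**
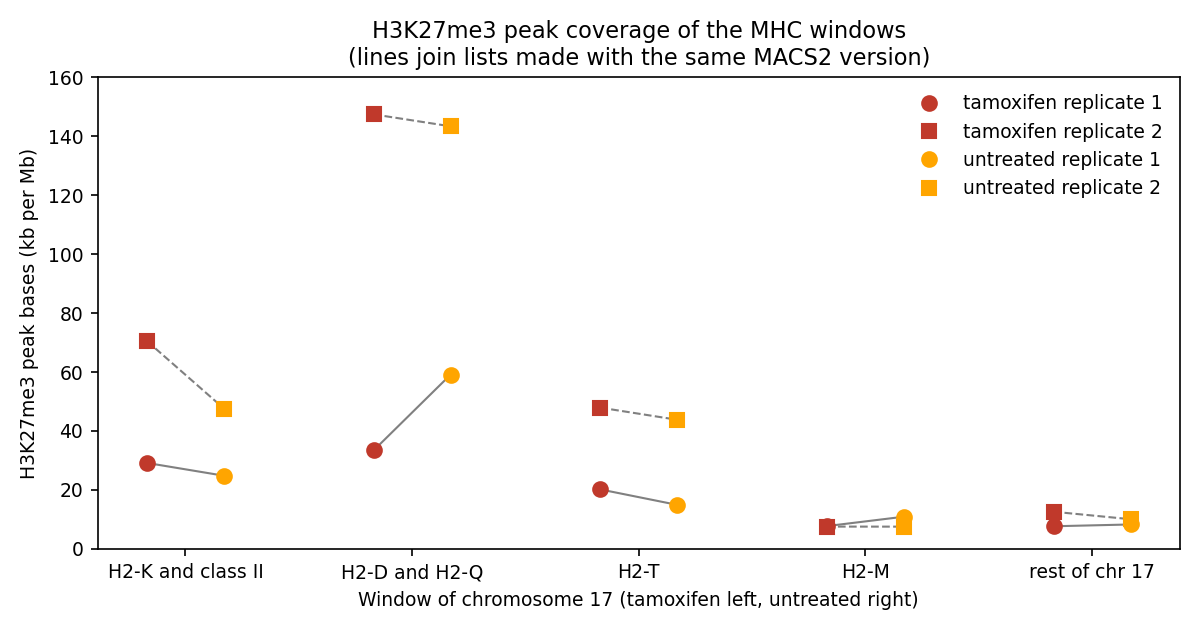
H3K27me3 peak bases in kb per Mb (vertical axis) in each window and the rest of chromosome 17 (horizontal axis), tamoxifen left and untreated right. Points are libraries, and lines join lists made with the same MACS2 version; the replicate 2 lists, at 147 kb per Mb with tamoxifen and 143 kb per Mb untreated in the H2-D and H2-Q window, lie above the replicate 1 lists except in the H2-M window.

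The 4 H3K27me3 lists merged into 87 regions in the windows. Those with a peak in every list are called kept and numbered 19, 21.8% against 15.3% over the genome. Regions with a peak in both tamoxifen lists and in neither untreated list, called gained, numbered 2, which is 2.30% against 2.18% over the genome. None had the reverse pattern, called lost, which 0.281% of regions over the genome had, and 0 of 87 allows up to 3.45%, for counting error only. A further 41 regions were in 1 list, and 17 were in both replicate 2 lists only, against 0 in both replicate 1 lists only. The rest of chromosome 17 had 1082 regions, 713 of them in 1 list. There, 81 were in both replicate 2 lists only and 4 in both replicate 1 lists only.

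The gained regions lay in the H2-K and class II window. The wider, chr17:34349199-34351513 of 2315 bp, was covered over 46.6% and 72.7% by tamoxifen replicates 1 and 2, and over 0% in both untreated lists. The other, chr17:34275795-34276316 of 522 bp, was covered over 100% and 57.9% by tamoxifen replicates 1 and 2, and likewise over 0% in untreated lists. Their share is near that of the genome, and with peaks merged over gaps of up to 1 kb no gained region was counted.

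The H2-K and class II window held 8 kept H3K27me3 regions. Of these, 4 lie within 23.7 kb from 34319974 to 34343628 and hold 55.2% of the bases of the 8: chr17:34319974-34324119, chr17:34324766-34331286, chr17:34332162-34339069 and chr17:34340370-34343628. The widest of them, of 6908 bp from 34332162, was covered over 41.9% and 86.3% with tamoxifen and 44.3% and 61.2% in untreated cells.

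The other 4 kept regions of that window were chr17:34113576-34116350, chr17:34134390-34140057, chr17:34398450-34405120 and chr17:34528214-34530040. The region from 34398450, of 6671 bp, was covered over 61.5% and 64.1% with tamoxifen and 63.7% and 76.2% in untreated cells. It is the kept region of the windows on which the 4 lists came closest. The region from 34134390 was covered over 18.0% and 67.9% with tamoxifen and 3.92% and 100% in untreated cells, and so differed more by replicate number than by tamoxifen.

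The H2-D and H2-Q window held 5 kept regions, chr17:35397713-35403189, chr17:35455356-35459001, chr17:35477077-35481515, chr17:35493956-35497033 and chr17:35605030-35608820. The widest, of 5477 bp from 35397713, was covered over 19.9% and 93.7% with tamoxifen and 63.1% and 82.6% in untreated cells. The region from 35493956, of 3078 bp, was covered over 5.82% and 45.7% with tamoxifen and 58.9% and 80.0% in untreated cells. It is the kept region of this window in which both tamoxifen lists lay below both untreated lists.

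The H2-T window held 3 kept regions, chr17:36339313-36344912, chr17:36347627-36355769 and chr17:36366983-36368367, all within 29.1 kb. The widest, of 8143 bp from 36347627, was covered over 72.7% and 95.0% with tamoxifen and 53.9% and 70.8% in untreated cells. The region from 36366983 was covered over 100% and 73.9% with tamoxifen and 61.4% and 60.3% in untreated cells. In the regions from 36347627 and 36366983 both tamoxifen lists lay above both untreated lists. The region from 36339313 was covered over 26.1% and 66.4% with tamoxifen and 39.5% and 84.8% in untreated cells. Its cover was lower with tamoxifen within each replicate number. The H2-M window held chr17:37001183-37004571, chr17:37076320-37080934 and chr17:37347479-37350046. The widest of these, of 4615 bp from 37076320, was covered over 76.0% and 49.1% with tamoxifen and 76.6% and 71.1% in untreated cells.

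Over the 19 kept regions together, 44.3% and 75.7% of the bases were covered with tamoxifen and 57.6% and 68.6% in untreated cells. Of the 19, 14 were less covered with tamoxifen within replicate 1 and 9 within replicate 2, with 7 less covered within both. The same counts over kept regions outside the windows were not made, so these are listed without a comparison. The direction over all bases was lower with tamoxifen in replicate 1 and higher in replicate 2.

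The marks seldom lay on the same bases in the windows. None of the 23 H3K9me3 regions held by all 4 libraries overlapped a peak of any H3K27me3 list, and over the genome 1.26% of such regions did, 136 of 10815. A count of 0 among 23 allows a share of up to 13.0%, for counting error only, so it is not set apart from the genome share. Single pairs of libraries shared 0 to 1558 bp in the windows, at most 1.61% of the H3K9me3 bases of a library. In the rest of chromosome 17 the pairs shared 0.230% to 0.572% of those bases, and pairs in the windows lay on both sides of that span. H3K9me3 replicate 1 shared 0 bp in the windows with each of the 4 H3K27me3 lists.

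Among all 63 H3K9me3 regions of the windows, 4 overlapped an H3K27me3 region, and each lacked H3K9me3 replicate 1. The same share over all H3K9me3 regions of the genome was not counted, so the 4 are listed without a comparison. The region chr17:34530165-34531566 held H3K9me3 in replicates 2, 3 and 4 and shared 465 bp with a region of tamoxifen replicate 1 alone. Likewise chr17:35566234-35567838 held H3K9me3 in replicates 2, 3 and 4 and shared 925 bp with a region of tamoxifen replicate 2 alone. The others were chr17:35572744-35573354, with H3K9me3 in replicates 2 and 3 and 611 bp shared, and chr17:34139270-34139938, with H3K9me3 in replicate 3 and all 669 bp inside a kept H3K27me3 region.

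The distance between the marks differed by window. From an H3K9me3 region held by all 4 libraries to the nearest kept H3K27me3 region the median was 104 kb in the windows. It was 342 kb in the rest of chromosome 17, and 3 of 23 lay within 10 kb, against 11 of 447. Kept H3K27me3 regions were also denser in the windows, 19 in 2.44 Mb against 163 in the 89.8 Mb of the rest. The part of that density in these distances was not tested. In the H2-D and H2-Q window the median was 5.88 kb, over only 3 regions. The wide region of 13963 bp followed the kept region that ends at 35497033 after 2.82 kb. In the H2-K and class II window the wide region from 34354738 stood 11.1 kb after the run of 4 kept regions and 25.2 kb before the kept region from 34398450.

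In the H2-T window the run of 5 H3K9me3 regions ended 94.3 kb before the nearest kept H3K27me3 region, and the median distance there was 123 kb. H3K27me3 peaks that were not in all 4 lists began earlier, since the stretch without them from the start of the window ended at 36169211, inside that run. A further H3K9me3 region held by all 4 libraries, chr17:36381513-36384266, lay 13.1 kb after the last kept H3K27me3 region. In the H2-M window the median distance was 157 kb. Stretches with no peak of a mark in any list were longest in the H2-M window, where H3K27me3 was absent from the lists for 410 kb, from its start to 36910120, and H3K9me3 for 268 kb from 36972233 to 37240319. In the H2-K and class II window 108 kb from 33998669 to 34106564 held no peak of either mark in any of the 8 lists.

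**Figure D4:**
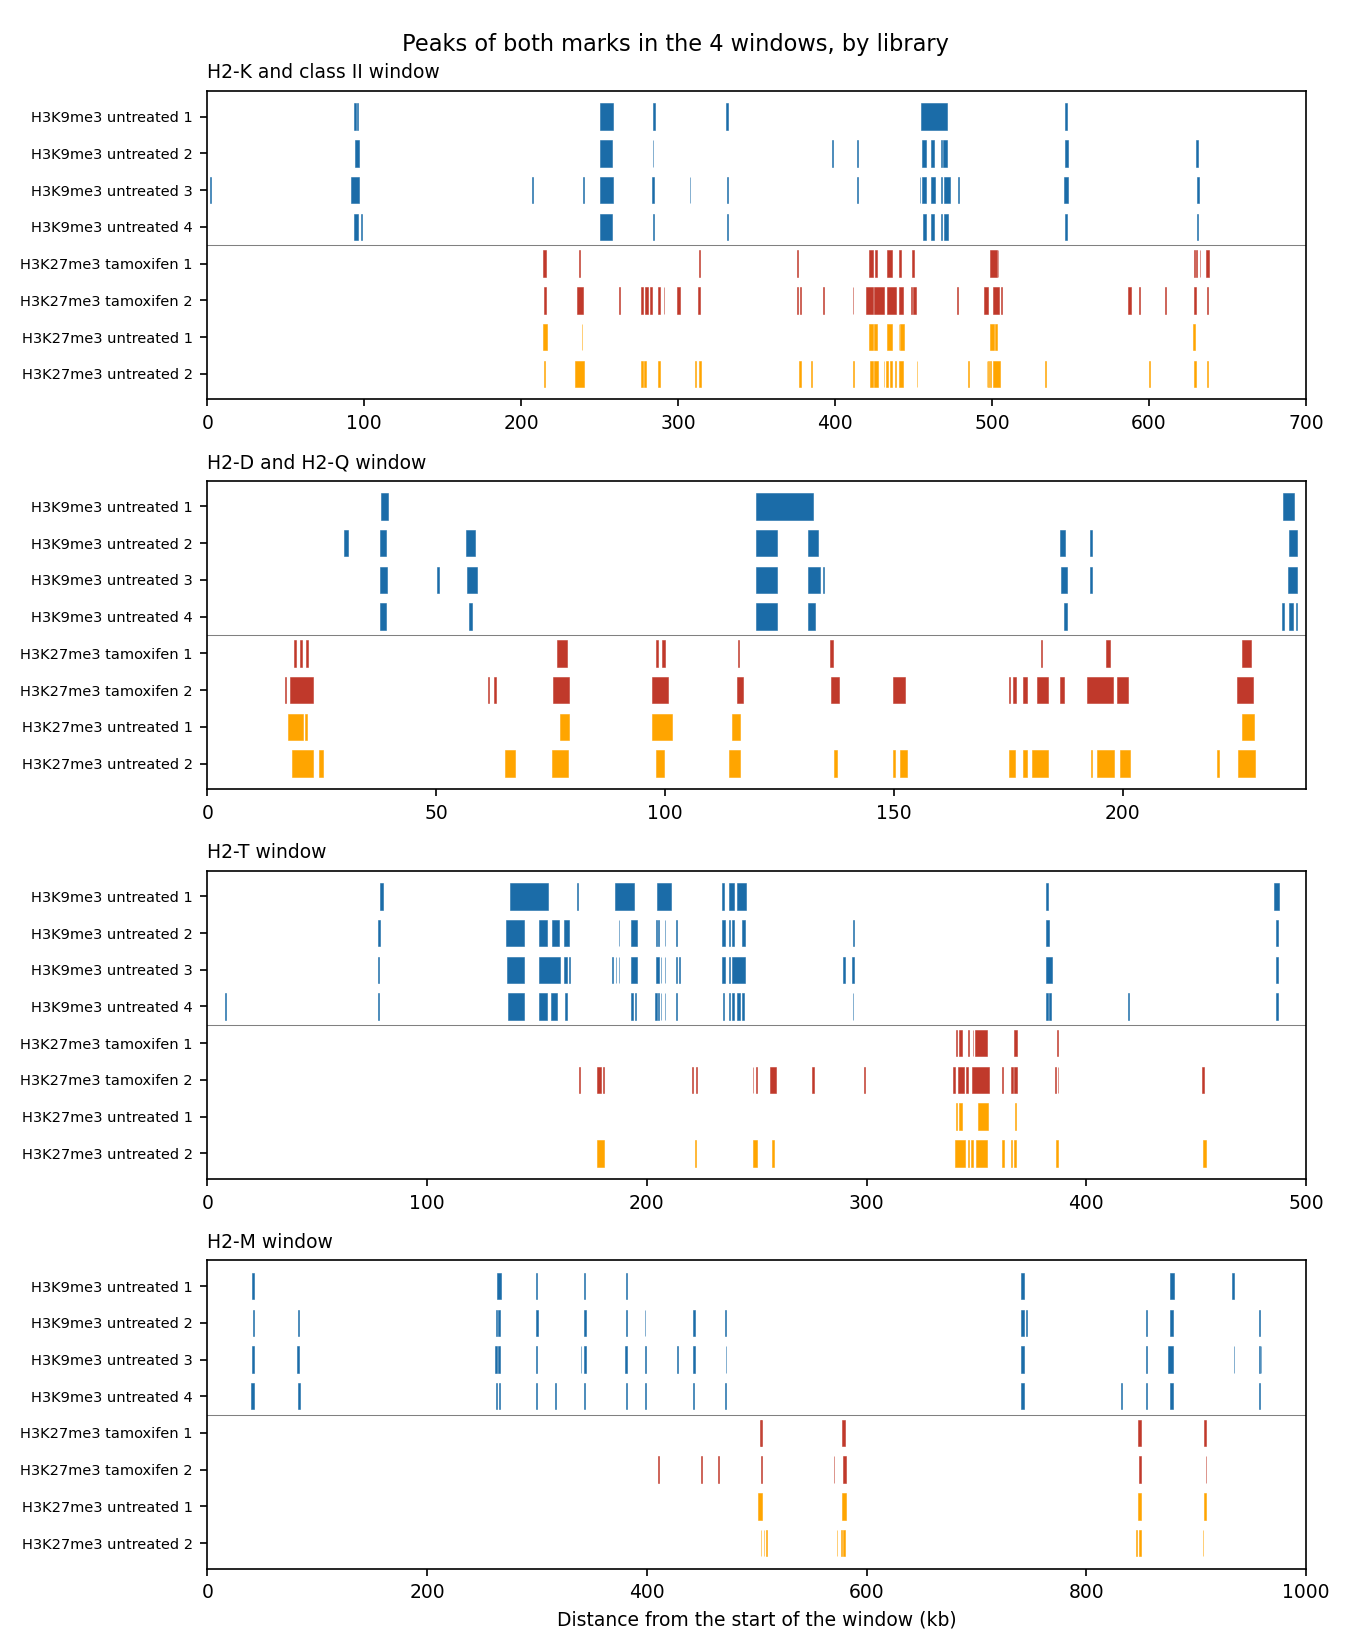
Peaks of each library (rows) along the 4 windows, as distance in kb from the start of the window (horizontal axis); blue is H3K9me3 in untreated cells, red H3K27me3 with tamoxifen and orange H3K27me3 in untreated cells. The marks alternate along the H2-K and class II and the H2-D and H2-Q windows, and in the H2-T window the run of H3K9me3 regions within 109 kb lies apart from the kept H3K27me3 regions within 29.1 kb.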

How the data were processed

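Chromatin immunoprecipitation and sequencing data came from 8 libraries, and the authors deposited a list of peaks for each, as chromosome, start and end positions on mm9. No score, count or control signal is in the lists. Per the submitters' processing notes, reads were aligned with Bowtie 0.12.7 and peaks came from MACS2, version 2.0.10 for replicate 1 of each group and 2.1.0 for the others. The sources used here do not give the calling mode, threshold or control. Depth is unknown, and both depth and the MACS2 version can change the number and width of peaks.

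Groups were taken from the titles. Libraries without a replicate number were numbered 1, so numbers do not pair libraries. Touching or overlapping peaks were merged into regions, a region counted for every library with a peak in it, by 1 bp or more, and coverage was the bases in peaks per Mb. Tamoxifen and untreated lists were compared by a two-sided exact permutation test. The code was tested on simulated data. Python 3.11.15, NumPy 2.4.6, Matplotlib 3.10.9 and Biopython 1.88 were used.

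Regions named are the 3 widest H3K9me3 regions held by all 4 libraries in each window, every kept H3K27me3 region, the 2 widest gained and lost regions of each window and every region with both marks. H3K9me3 regions with fewer libraries that overlap H3K27me3, and the runs of neighbouring regions, were added after their values were seen. The windows, genes and lists were chosen with earlier results of these data known. Alternatives were peaks of at least 500 bp, an equal number of the widest peaks per list, and windows widened or narrowed by 50 kb. Others were merging across 1 kb, a minimum cover of 50%, fewer libraries, each MACS2 version alone and leaving out each library. A block by MACS2 version was added after seeing the data. Positions count from 1.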

Additional observations from a re-analysis of the deposited data

Results flagged for a closer look

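In groups of 4 libraries, a library was marked when its gap to the nearest other took more of the group's range than Dixon's critical value. Of 39 such groups of H3K9me3 measures 5 were marked, where chance marks about 5%, and the measures share libraries and peaks. H3K9me3 replicate 1, called with MACS2 2.0.10 where the others were called with 2.1.0, was the library marked in each. Its widest peak was high in the H2-K and class II window, at 16443 bp, in the H2-D and H2-Q window, at 12544 bp, and over the 4 windows, at 17592 bp. It was low in the number of peaks in the H2-D and H2-Q window, at 3, and high in the median peak width of the rest of chromosome 17, at 2018 bp. The part of the MACS2 version in these values was not tested.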

How the results depend on the processing

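Of 108 alternatives to 11 results, 88 kept the direction and stayed within the spread or within 1.5 times the count, 17 moved a value beyond it and 3 turned a direction. The H3K9me3 ratio of the 4 windows and those of the H2-T and H2-M windows moved beyond their SD under none of the alternatives run. Windows narrowed by 50 kb gave a ratio of 2.09 in the H2-K and class II window and 3.51 in the H2-D and H2-Q window, and widened by 50 kb 2.00 in the H2-D and H2-Q window. H3K9me3 regions held by all 4 libraries numbered 36 when held by at least 3, 39 by at least 2 and 8 with a cover of at least 50%, and 23 to 43 with a library left out, 43 being without replicate 1. The H3K27me3 difference between tamoxifen and untreated lists was 0.369 kb per Mb with an equal number of the widest peaks per list and -1.52 within MACS2 2.0.10. It was -11.2 to 17.5 with a library left out, with -11.2 without tamoxifen replicate 2 and -6.52 without untreated replicate 1. The difference therefore has no stable sign. Kept H3K27me3 regions numbered 6 with a cover of at least 50%. Gained regions numbered 1 with an equal number of the widest peaks, 0 with merging over 1 kb and 3 to 26 with a library left out, and lost regions 1 with an equal number of peaks, 1 with a cover of at least 50% and 0 to 15. Leaving out a library leaves 1 list in its group and so relaxes what counts as gained or lost. Regions with both marks numbered 0 to 2 with a library left out, 2 being without H3K9me3 replicate 1. The cause of the other shifts was not tested. With the MACS2 version as a replicate block, an alternative chosen after seeing the data, the H3K27me3 difference was 3.16 kb per Mb (exact permutation p = 1 over 2 blocks, where 0.5 is the smallest possible). The replicate numbers themselves do not pair libraries in the labels. Depth is unknown, so a stretch without a peak is not shown to lack the mark.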
